A study of Mus musculus with 6 samples.

Results

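Ndufa4l2, Cox4i2, Higd1a, Bnip3 and Bnip3l are 5 of the 31053 mouse genes counted here, taken by their symbols and described across the retinal cell types. They were selected because their levels had been seen to differ between retinas with oxygen-induced retinopathy (OIR) and control retinas (Ctrl) in these same data, so their OIR against Ctrl values are given as a description, with standard errors and without p-values. The study used single-cell RNA-seq to compare OIR with healthy retina. OIR pups and their nursing mothers were kept in 75% oxygen from P7 to P12, which stops and reverses vessel growth, and then in room air for 5 days, when the vessel-poor retina becomes short of oxygen. Ctrl pups were normal animals of the same age, without the oxygen exposure, and all retinas were taken at P17. Each of the 3 OIR and 3 Ctrl samples pooled the retinas of 2 mice, and no genotype or strain name is given for these samples in the sources used here.

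When oxygen falls, HIF transcription factors change the makeup of mitochondria in several ways. Alternative subunits are swapped into or beside the respiratory chain: Ndufa4l2 is the hypoxia-inducible relative of Ndufa4, a subunit found with cytochrome c oxidase (complex IV), and Cox4i2 is the alternative form of Cox4i1, the core nuclear-encoded subunit of that complex. Higd1a is a small inner-membrane protein that binds complex IV, and Bnip3 and Bnip3l (also called Nix) are outer-membrane receptors that pass mitochondria to autophagy. In the retina, photoreceptors carry most of the mitochondria and respire heavily, whereas Müller glia, which span the whole tissue, rely largely on glycolysis.

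On build GRCm38, Ndufa4l2 (ENSMUSG00000040280) lies on chromosome 10 from 127514967 to 127517154. Cox4i2 (ENSMUSG00000009876) lies on chromosome 2 from 152754173 to 152765037, and Higd1a (ENSMUSG00000038412) on chromosome 9 from 121848563 to 121858362. Bnip3 (ENSMUSG00000078566) lies on chromosome 7 from 138890836 to 138909519, and Bnip3l (ENSMUSG00000022051) on chromosome 14 from 66985239 to 67008877. All are protein-coding genes, and the 3' counting used here reads the end of the transcript, so that a UMI (unique molecular identifier, 1 captured RNA molecule) belongs to the gene as a whole.

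The submitters labelled the source as retinal endothelial cells, but the matrices hold whole retina: of 38569 cells kept, 25395 were rod-like and 199 were VEC-like (vascular endothelial). The other named classes were 3898 Müller-like, 3438 cone bipolar-like, 2055 rod bipolar-like, 1863 cone-like, 347 amacrine-like, 243 microglia-like, 235 RPE-like, 85 VSMC-like (vascular smooth muscle and pericytes) and 56 astrocyte-like cells, and 755 cells stayed unnamed. The marker lists were at a median of 53344 CPM (UMIs per 1000000 UMIs of the sum) in rod-like, 38158 in Müller-like and 21559 in rod bipolar-like sums. Of the lists of the other fitted classes, that of cone bipolar-like cells was at 5440 CPM in its own class and up to 7358 in another. The Müller list reached 52088 CPM in microglia-like cells. The median of its 11 markers there was at a mean of 2.07% (OIR) and 1.39% (Ctrl) of the Müller-like level. Samples held 15788524 to 42606878 UMIs, and both replicate 1 samples were deeper per cell than the rest. Those 2 samples also parted from the other 4 on the first principal component (46.7% of variance), and the groups parted on the second (30.1%). Of the kept barcodes, 161 occurred in more than 1 sample (322 cells).

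The gene with the largest difference in glia was Ndufa4l2. In Müller-like cells it was at 1380, 975 and 1173 CPM in the OIR samples, given here and below in the order of replicates 1, 2 and 3. In the Ctrl samples it was at 90.5, 74.8 and 101 CPM. The lowest OIR sample lay far above the highest Ctrl sample, and the fitted log2 fold change was 3.67 ± 0.21 (SE, n = 3 and 3), a 12.8-fold difference. Both Müller-like clusters showed it. The deeper cluster of 2203 cells gave 1359, 808 and 1062 CPM in OIR against 89.9, 80.6 and 102 in Ctrl, and the shallower one of 1695 cells gave 1512, 1488 and 1477 against 94.5, 47.3 and 99.1. The shallower cluster held more of the OIR cells in replicates 2 and 3, since the deeper one took 64.7%, 40.2% and 39.5% of Müller-like cells in the OIR samples and 67.3%, 56.1% and 62.8% in the Ctrl samples.

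Measured by cells rather than by sums, 50.1%, 43.4% and 47.0% of OIR Müller-like cells held a Ndufa4l2 UMI at 1000 UMIs per cell, against 8.13%, 5.63% and 5.75% in Ctrl. Without thinning these shares were 70.0%, 63.7% and 59.9% against 21.3%, 23.6% and 21.0%. In the OIR samples Müller-like cells held a mean of 91.6% of all Ndufa4l2 UMIs from named cells while making up 12.5% of those cells. In the Ctrl samples they held 51.4%, and the few VSMC-like cells held 42.9%.

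**Figure D1:**
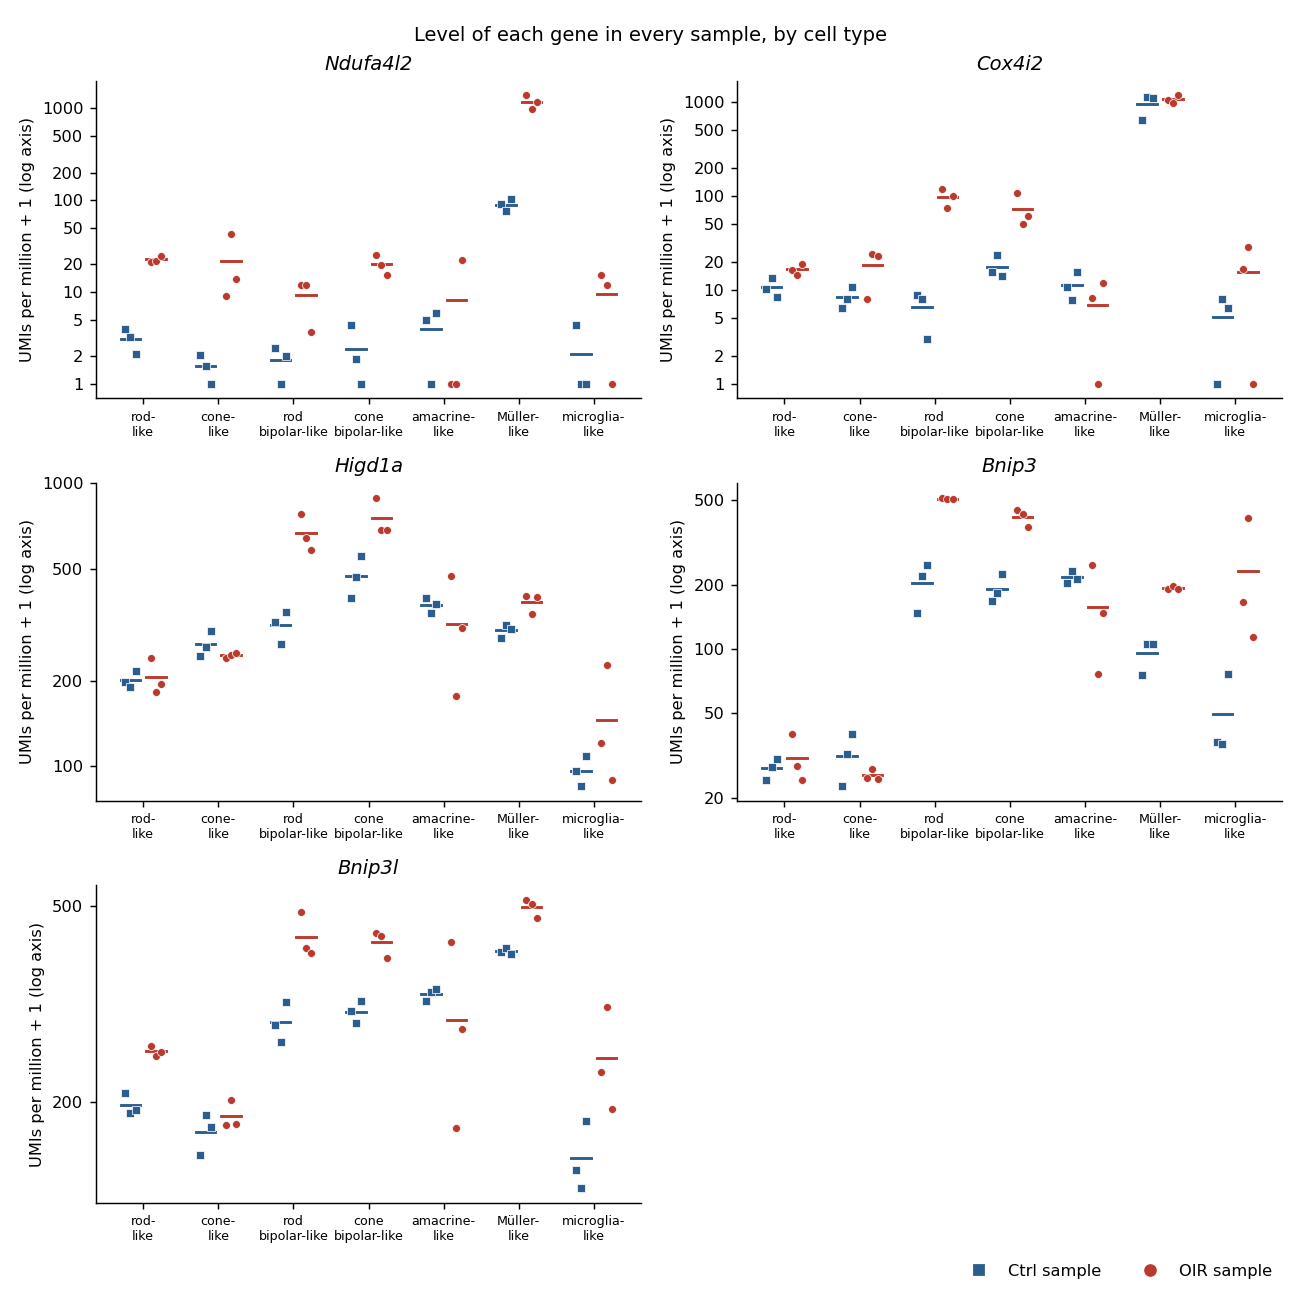
Level of the 5 genes in each of the 6 samples by cell type, as CPM plus 1 on a log axis, with Ctrl samples as squares, OIR samples as circles and the group mean as a bar. Ndufa4l2 stands apart between groups in Müller-like cells (975 to 1380 against 74.8 to 101 CPM), whereas Cox4i2 there overlaps, and amacrine-like cells overlap for all 5 genes.

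VSMC-like cells carried Ndufa4l2 without any oxygen exposure. Their Ctrl levels were 1526, 2193 and 1939 CPM from 63, 5 and 5 cells, above the Ctrl level of Müller-like cells in every sample. Their OIR levels were 1741, 1584 and 0 CPM from 5, 2 and 5 cells. The sample without a UMI had a floor (the level of 3 UMIs) of 72.9 CPM, and its Higd1b, a pericyte-enriched relative of Higd1a, was also the lowest of the VSMC-like sums at 364 CPM against 1127 to 2122 in the others. These cells were too few for a fit. Higd1b had at most 7 UMIs in any sum of the 7 classes that were fitted.

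In photoreceptors and bipolar cells Ndufa4l2 was far lower than in Müller-like cells of the same samples, although the groups also stood apart. In amacrine-like cells they overlapped, at 0, 0 and 21.6 CPM in OIR against 4.03, 0 and 4.90 in Ctrl. Rod-like cells gave 20.4, 20.9 and 23.8 CPM in OIR against 2.95, 2.26 and 1.14 in Ctrl (log2 fold change 3.26 ± 0.27, SE). Cone-like cells gave 8.0, 41.5 and 12.8 against 1.08, 0.589 and 0 (4.38 ± 0.67), with a floor of 4.87 CPM for the sample at 0. Cone bipolar-like cells gave 24.5, 18.6 and 14.3 against 3.36, 0.858 and 0 (2.89 ± 0.44), with a floor of 3.02 CPM. Rod bipolar-like cells gave 10.9, 11 and 2.72 against 1.47, 0 and 1.01, with a floor of 2.33 CPM for the sample at 0 and too few UMIs to pass the filter on low counts. The sizes of these differences rest on few UMIs: without Ctrl replicate 1 the log2 fold change was 5.28 in cone bipolar-like and 4.15 in rod bipolar-like cells, and with single samples left out it was 3.42 (without OIR replicate 2) to 5.28 (without Ctrl replicate 1) in cone-like cells.

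Because Müller RNA can be carried over into other droplets, the neuronal levels were set beside it. Against the Müller-like level of the same sample, Ndufa4l2 in rod-like cells was at 1.48%, 2.14% and 2.03% in OIR and at 3.26%, 3.02% and 1.13% in Ctrl. Glul (glutamine synthetase, a Müller enzyme) was at 1.59%, 1.25% and 1.62% in OIR rods and at 1.33%, 0.969% and 0.929% in Ctrl rods. Its Müller-like level, to which these percentages refer, was 5714, 8549 and 6107 CPM in OIR and 9277, 10062 and 9728 in Ctrl. Over rod-, cone-, rod bipolar- and cone bipolar-like cells together, Ndufa4l2 was at 0.231% to 4.26% (median 1.35%) of its Müller-like level in OIR and at 0% to 3.72% (median 1.14%) in Ctrl, and Glul at 0.962% to 1.74% and 0.583% to 1.83%. As a percentage of the Müller-like level, Ndufa4l2 overlapped between OIR and Ctrl in all 4 neuron classes. Its neuronal levels are not read as expression by these neurons, and the part of carried-over RNA in them was not tested.

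**Figure D2:**
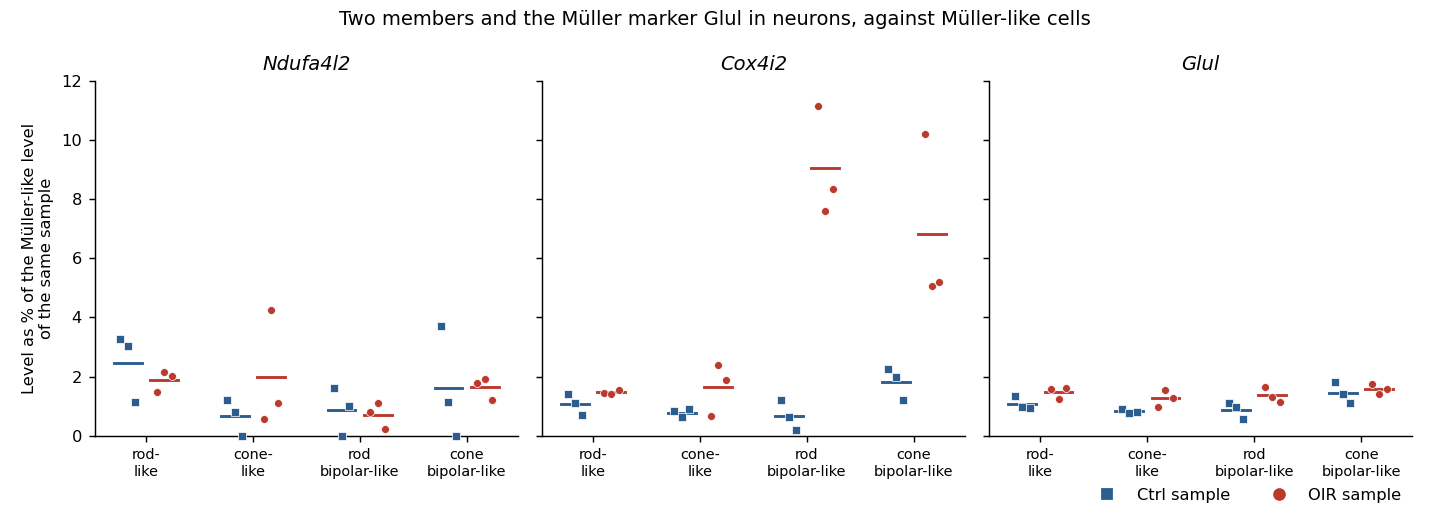
Ndufa4l2, Cox4i2 and Glul in 4 neuron classes, each as a percentage of the Müller-like level of the same sample, with Ctrl samples as squares, OIR samples as circles and the group mean as a bar. Ndufa4l2 and Glul stay at or below 4.26% in every class, whereas Cox4i2 reaches 5.08% to 11.2% in the OIR samples of both bipolar classes.

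Cox4i2 showed another distribution, with overlapping groups in the summed Müller-like cells and groups that stood apart in bipolar neurons. In Müller-like cells the OIR samples were at 1053, 962 and 1171 CPM and the Ctrl samples at 649, 1117 and 1092 CPM. The groups overlapped, and the log2 fold change was 0.09 ± 0.21 (SE). Its share of the pair Cox4i2 plus Cox4i1, in UMIs, was 50.4% ± 2.65 (SD, n = 3) in OIR and 49.1% ± 7.29 in Ctrl. Ctrl replicate 1 was the low sample, and the log2 fold change lay between -0.15 and 0.66 over 18 alternative settings, with its sign kept in 16. The clusters differed here: the deeper one overlapped, at 1060, 941 and 1195 CPM in OIR against 643, 1186 and 1128 in Ctrl, while in the shallower one the OIR samples, at 1006, 1027 and 1105 CPM, lay above the Ctrl samples, at 686, 787 and 876. Cox4i2 was among the top 10 genes of the shallower cluster against all other clusters.

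In rod bipolar-like cells Cox4i2 was at 118, 73.2 and 97.7 CPM in the OIR samples, from 560, 127 and 144 UMIs. In the Ctrl samples it was at 7.89, 7.0 and 2.02 CPM, from 43, 9 and 2 UMIs. The lowest OIR sample lay far above the highest Ctrl sample, and the log2 fold change was 3.81 ± 0.29 (SE), a 14.0-fold difference. These OIR levels were 11.2%, 7.61% and 8.35% of the same samples' Müller-like levels, where Glul was at 1.66%, 1.32% and 1.15% and the median of the 11 Müller markers at 0.974%, 0.589% and 0.695%. In the Ctrl samples Cox4i2 was at 1.22%, 0.627% and 0.185% of the Müller-like level, where Glul was at 1.09%, 0.958% and 0.583%.

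The shares of cells behaved alike. At 1000 UMIs per cell, 9.89%, 10.8% and 8.44% of OIR rod bipolar-like cells held a Cox4i2 UMI. In Ctrl it was 0.123% in replicate 1, 0 of 164 cells in replicate 2, which allows a share of up to 1.83%, and 0 of 157 cells in replicate 3, which allows up to 1.91%. Rod-like cells, given as a class with little Cox4i2, were at 1.19%, 1.12% and 1.54% in OIR and 0.905%, 0.948% and 0.557% in Ctrl. Unthinned shares were 45.1%, 35.9% and 42.7% in OIR rod bipolar-like cells and 4.28%, 3.05% and 1.26% in Ctrl, with median depths of 8444 to 10280 and 6411 to 8214 UMIs per cell (rod-like cells had 1914 to 3114 and 1403 to 2164). The Müller markers were not uniform in these cells. Aqp4 (a water channel) was at 10.4%, 15.5% and 26.2% of its Müller-like level in OIR and 0.957%, 2.18% and 1.80% in Ctrl, and the highest of the 11 markers reached 16.7% to 26.2% in OIR and 18.4% to 28.0% in Ctrl, above the percentages of Cox4i2. The Müller-like level of Aqp4 was itself lower in OIR, at 415, 372 and 277 CPM against 902, 679 and 675 in Ctrl. The percentages of Aqp4 therefore differ between groups by more than its CPM in rod bipolar-like cells. That CPM, which follows from these percentages and levels, was still higher in every OIR sample than in any Ctrl sample, as was that of Cox4i2. The part of carried-over RNA in either was not tested.

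Cone bipolar-like cells were at 107, 48.8 and 60.8 CPM for Cox4i2 in OIR. Their Ctrl samples were at 14.6, 22.3 and 13.1 CPM, below every OIR sample, and the log2 fold change was 2.19 ± 0.31 (SE). The class is made of 6 clusters, and the OIR samples lay above the Ctrl samples in 5 of them. The cluster led by Otor and Grik1 was the highest in both groups, at 340, 122 and 213 CPM in OIR against 34.5, 86.4 and 67.7 in Ctrl. The cluster led by Igfn1 and Vsx1 was the one that overlapped, at 27.0, 29.8 and 7.34 against 7.01, 0 and 11.4.

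**Figure D3:**
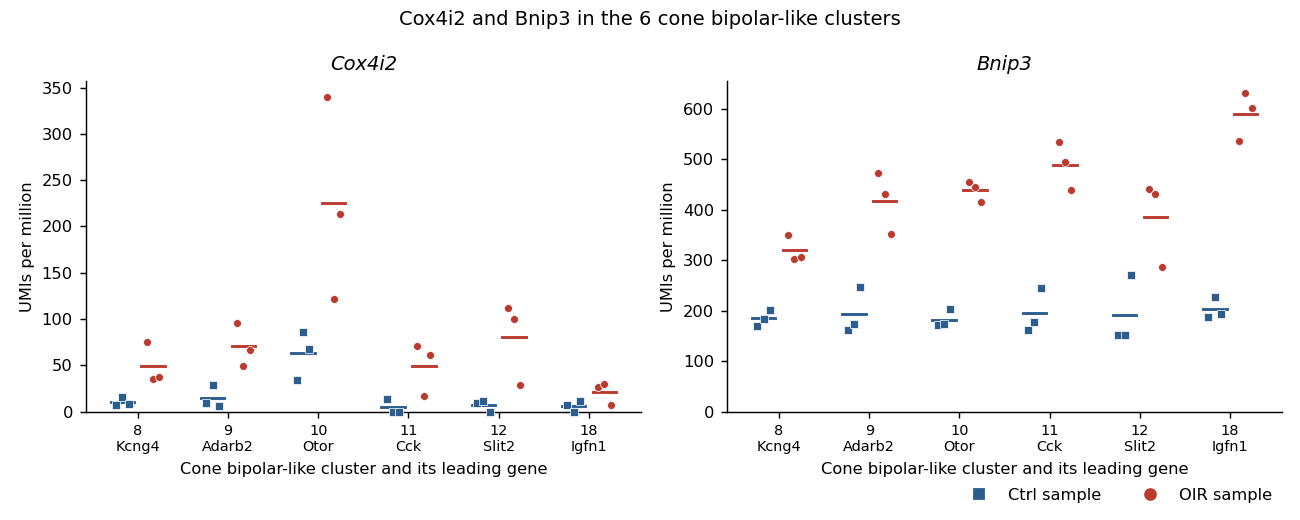
Cox4i2 and Bnip3 in the 6 cone bipolar-like clusters, as CPM on linear axes from 0, with Ctrl samples as squares, OIR samples as circles and the group mean as a bar. Bnip3 stands apart in 6 of 6 clusters, and Cox4i2 in 5 of 6, with the Otor cluster highest (122 to 340 CPM in OIR).

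In classes that were not fitted, some values were lower in OIR. VSMC-like cells were at 392.3, 274 and 97.1 CPM for Cox4i2 in OIR and 399, 1391 and 1044 in Ctrl. These levels rested on 45 UMIs in OIR and 338 in Ctrl. The groups did not overlap, but the nearest samples, at 392.3 and 399 CPM, came from 5 and 63 cells. In the clustering without integration no cells were named VSMC-like or astrocyte-like. A cluster of 139 cells there had markers of both and stayed unnamed. VEC-like cells, of which OIR had 25, 3 and 4 and Ctrl 147, 4 and 16, held 1 Bnip3 UMI in all OIR samples and 78 in Ctrl, at 4.85, 0 and 0 CPM against 64.7, 52.1 and 34.4. Bnip3l in them was at 179, 192 and 0 CPM in OIR and 394, 399 and 275 in Ctrl. The floors of the OIR VEC-like samples were 14.5, 288 and 578 CPM, so that OIR replicates 2 and 3 could not show the Ctrl level of Bnip3. For Bnip3l, OIR replicate 2 lay below its own floor, and the floor of OIR replicate 3 lay above every Ctrl level. RPE-like cells had at least 15 cells in every sample and were not fitted either. Bnip3l in them was at 239, 261 and 252 CPM in OIR and 114, 198 and 186 in Ctrl, higher without overlap. The groups overlapped there for the other 4 genes.

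Photoreceptors had little Cox4i2. Rod-like cells were at 15.4, 13.5 and 18.1 CPM in OIR and 9.21, 12.4 and 7.48 in Ctrl (log2 fold change 0.52 ± 0.22, SE), or 1.40% to 1.54% and 0.685% to 1.42% of the Müller-like level. Cone-like cells were at 6.96, 23.1 and 22.3 against 5.40, 7.06 and 9.74 CPM, and the groups overlapped. The log2 fold change in cone-like cells was 1.30 ± 0.40 (SE), and it lay between 0.98 and 1.86 over 16 alternative settings. Rod-like sums also differed between groups in red blood cell RNA: the 4 marker genes summed to 1503 to 2551 CPM in Ctrl and 9.58 to 47.8 in OIR, and the part of this in any rod value was not tested. In astrocyte-like cells, of which no group had 10 in every sample, Cox4i2 was at 24.1, 130 and 43.2 CPM in OIR and 164, 116 and 166 in Ctrl.

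Higd1a differed most in bipolar neurons. In rod bipolar-like cells it was at 781, 639 and 580 CPM in OIR and at 321, 269 and 351 CPM in Ctrl, with no overlap (log2 fold change 1.06 ± 0.17, SE). Cone bipolar-like cells had 890, 682 and 685 CPM in OIR and 393, 466 and 551 in Ctrl (0.65 ± 0.18), again with no overlap. Taken by cluster, the OIR samples lay above the Ctrl samples in 5 of the 6 cone bipolar-like clusters. In Müller-like cells the OIR samples were at 399, 344 and 395 CPM and the Ctrl samples at 283, 315 and 305 (0.27 ± 0.14). Of the 2 Müller-like clusters, the OIR samples lay above the Ctrl samples in 1, the shallower. In photoreceptors the groups overlapped, at 182 to 241 against 189 to 216 CPM in rods and 240 to 250 against 244 to 299 in cones. Higd2a, the constitutive relative of Higd1a, was not called in any class. In rod bipolar-like cells it was at 301 to 337 CPM in OIR and 366 to 410 in Ctrl, lower without overlap. As a share of the UMIs of Higd1a plus Higd2a, Higd1a went from 44.9% ± 2.14 (SD) in Ctrl to 67.4% ± 4.50 in OIR rod bipolar-like cells, and from 68.5% ± 2.83 to 78.5% ± 3.70 in cone bipolar-like cells.

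Bnip3 stood apart between groups in the same 3 classes and also in microglia. Rod bipolar-like cells were at 510, 500 and 502 CPM in OIR and 147, 219 and 245 in Ctrl (log2 fold change 1.30 ± 0.17, SE). Cone bipolar-like cells were at 446, 426 and 372 against 166, 181 and 223 CPM (1.09 ± 0.15), and the OIR samples lay above the Ctrl samples in 6 of 6 clusters. In Müller-like cells the levels were 190, 197 and 190 CPM in OIR and 74.5, 105 and 105 in Ctrl (0.97 ± 0.16). In all 3 classes the lowest OIR sample was above the highest Ctrl sample, by more than the spread within either group. Microglia-like cells were at 165, 411 and 113 CPM from 127, 74 and 28 UMIs in OIR and at 35.7, 35.0 and 75.0 CPM from 21, 5 and 14 UMIs in Ctrl (2.24 ± 0.44), with OIR replicate 2 resting on 17 cells. The log2 fold change was 1.06 with cells thinned to 1000 UMIs. Other values also parted the microglia-like sums without overlap: OIR against Ctrl samples had median depths of 9673 to 11795 against 5608 to 7005 UMIs, dissociation stress genes at 3388 to 6064 against 6724 to 8016 CPM, and the Müller marker list at 42584 to 52088 against 17401 to 21061 CPM. In these cells the median of the 11 Müller markers was at a mean of 2.07% of the Müller-like level in OIR and 1.39% in Ctrl. The highest marker was at 315% to 791% in OIR and 88.6% to 251% in Ctrl, so the list sum is not read as Müller RNA. The part of these values in the Bnip3 difference was not tested.

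Rod-like cells showed no such difference in Bnip3. Their OIR samples were at 39.1, 27.4 and 23.4 CPM and their Ctrl samples at 23.4, 27.2 and 29.4, and the log2 fold change was 0.00 ± 0.21 (SE), of either sign across the alternative settings (-0.36 to 0.20). Cone-like cells were at 24.0, 26.3 and 23.6 against 21.8, 31.2 and 39.0 CPM. Amacrine-like cells, which are inner neurons like the bipolar cells, were at 247, 75.5 and 146 CPM in OIR and 203, 232 and 211 in Ctrl, and the 3 OIR samples, of 32, 38 and 59 cells, spanned the Ctrl range on both sides.

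Bnip3l differed modestly in several classes. The OIR samples were above the Ctrl samples in rod-like cells (260, 248 and 252 against 208, 190 and 192 CPM), with a log2 fold change of 0.21 ± 0.10 (SE). The same held in rod bipolar-like cells at 485, 411 and 402 against 286, 264 and 319 CPM (0.55 ± 0.15), and in cone bipolar-like cells at 440, 434 and 392 against 306, 289 and 320 (0.42 ± 0.13). By cluster it held in 4 of 6 cone bipolar-like and 2 of 2 Müller-like clusters. Müller-like cells had the highest level, at 515, 505 and 473 against 402, 410 and 400 CPM (0.24 ± 0.13), and cones overlapped. Microglia-like cells gave its largest difference, at 230, 311 and 193 against 145, 133 and 182 CPM (0.67 ± 0.25). Bnip3 made up 53.9% ± 2.31 (SD) of the UMIs of the 2 mitophagy receptors in OIR and 40.9% ± 6.13 in Ctrl rod bipolar-like cells, and 27.9% ± 0.866 against 18.9% ± 2.86 in Müller-like cells, whereas in rods it was 11% ± 2.35 and 12% ± 1.65.

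**Figure D4:**
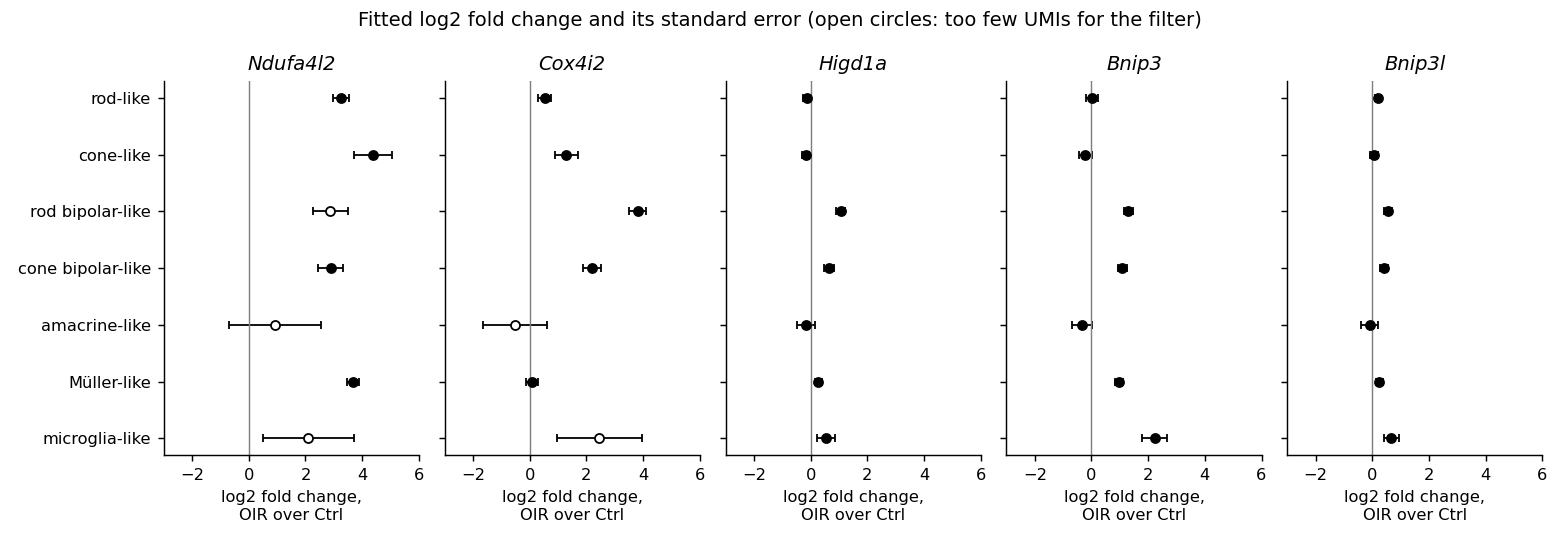
Fitted log2 fold change (OIR over Ctrl) of each gene by cell type, with the standard error as a bar and open circles where the gene had too few UMIs to pass the filter on low counts. Ndufa4l2 has its smallest error in Müller-like cells (3.67 ± 0.21), Cox4i2 is far from 0 in both bipolar classes but not in Müller-like cells, and Higd1a, Bnip3 and Bnip3l are nearest 0 in photoreceptors and amacrine-like cells.

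Bnip3 and Higd1a, which differed together in bipolar cells, are the 2 members with an entry in the RefSeq promoter table (GRCm38.p6). They are shown because the core of the hypoxia response element, ACGTG or GCGTG, is the letters that HIF factors bind, and both were searched on either strand in the 250 bases before each RefSeq start. At least 1 core is found in 38.6% of the 32851 promoters of that length. Bnip3 has 5 matches, as many as or more than which are found in 1.01% of promoters, and Higd1a has 2, as many as or more than which are found in 16.7%. The Bnip3 stretch runs from 163 to 14 bases before the start (chr7:138909520-138909669, minus strand) and the Higd1a stretch from 80 to 51 bases before it (chr9:121857847-121857876, minus strand), all 30 bases of the latter within an annotated GENCODE exon of the gene. Capitals mark the matches in either orientation, and CACGTG in Bnip3 is read on both strands and is also an E-box.
Bnip3: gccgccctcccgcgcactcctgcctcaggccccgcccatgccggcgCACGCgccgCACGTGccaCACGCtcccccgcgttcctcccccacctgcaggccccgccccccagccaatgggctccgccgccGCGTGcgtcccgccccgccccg
Higd1a: ggtctagcctGCGTGCGTGgcgttcgcgga
The 2 Higd1a cores overlap by 1 base. A match of letters is a description of the sequence and does not show binding.

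Counted over the 5 genes, the OIR samples lay above all Ctrl samples for 5 of 5 in rod bipolar-like cells (11.5% of the 9332 genes tested) and for 5 of 5 in cone bipolar-like cells (11% of 10262). The count was 4 in Müller-like cells (13.9% of 11627), 3 in rod-like cells (23.8% of 11559), 2 in microglia-like cells (6.62% of 3368), 1 in cone-like cells (10.9% of 9410) and 0 in amacrine-like cells (4.45% of 3953). The genes were selected on this contrast, so nothing is read from these counts. A call in the fit over all genes needed a Benjamini-Hochberg adjusted p below 0.05 together with 0.25 or more in the size of the log2 ratio. By it 3 of the 5 would be called higher in rod bipolar-like cells, 3 in cone bipolar-like, 2 in Müller-like, and 1 each in rod-, cone- and microglia-like cells. The shares of all genes called higher were 1.26%, 0.507%, 1.66%, 1.57%, 0.744% and 0.297%. Since the 5 genes were selected on this contrast, nothing is read from their calls either. The median log2 fold change of the 5 genes was 1.30 in rod bipolar-like, 1.09 in cone bipolar-like, 0.27 in Müller-like, 0.21 in rod-like, 0.06 in cone-like, -0.15 in amacrine-like and 2.10 in microglia-like cells, the last being the value of Ndufa4l2, which did not pass the filter there, beside medians over all genes tested between -0.01 and 0.01. Rod-like cells had 181 genes called higher and 112 lower, and without TMM scaling 467 and 85, with the median of all genes at 0.16. In cone-like cells the same change of scaling took 70 higher and 42 lower to 66 and 22. Ndufa4l2 did not pass the filter on low counts in rod bipolar-like cells, nor did Ndufa4l2 and Cox4i2 in amacrine- and microglia-like cells. Where it passed in cone-like cells, Ndufa4l2 had 121 UMIs in OIR and 7 in Ctrl. In cone bipolar-like cells it had 219 and 33.

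**Figure D5:**
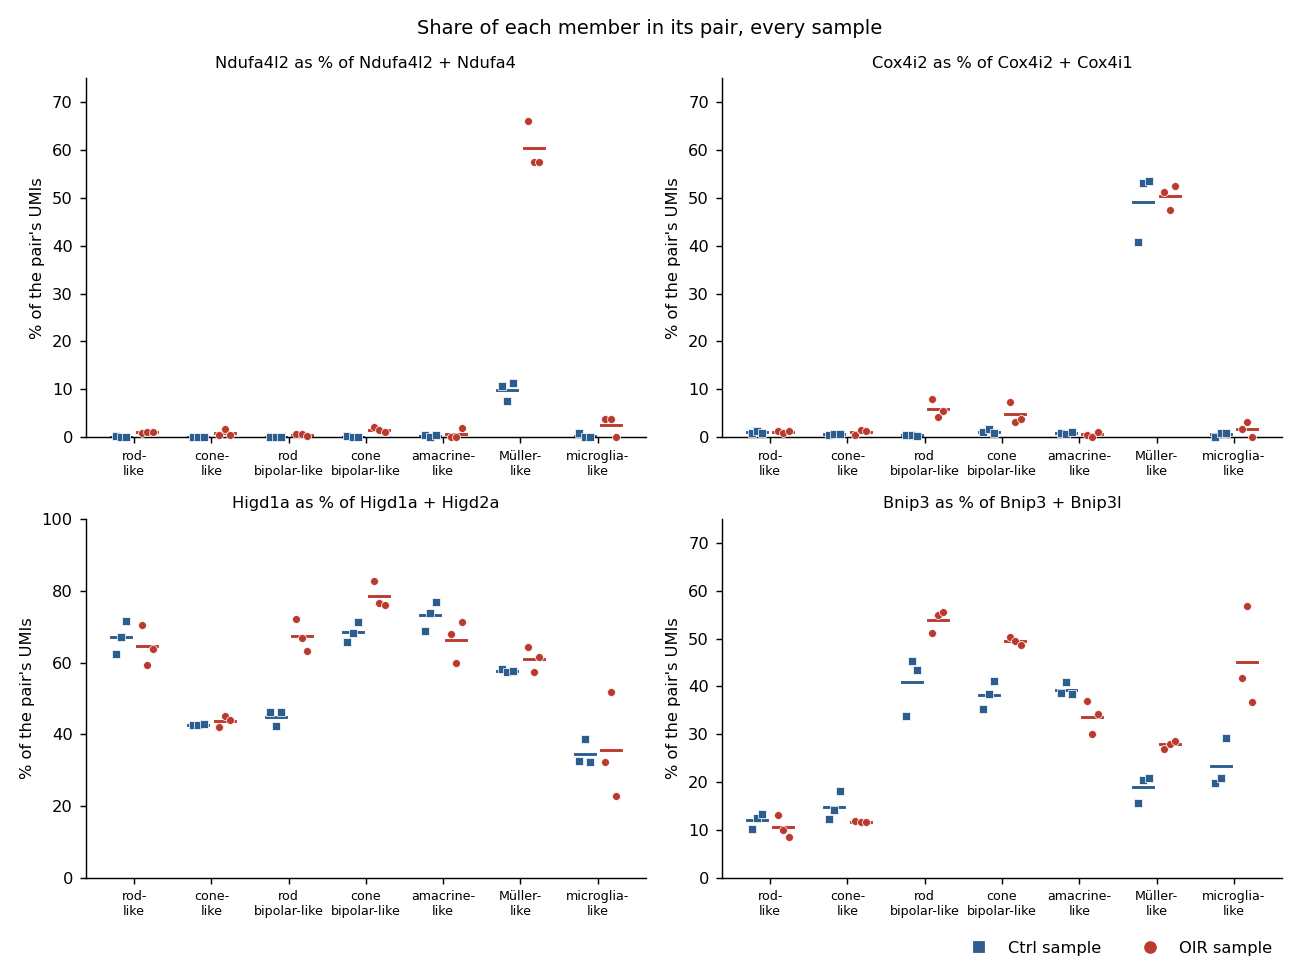
Share of Ndufa4l2, Cox4i2, Higd1a and Bnip3 in the UMIs of each gene plus its named partner, as a percentage in every sample by cell type, with Ctrl samples as squares, OIR samples as circles and the group mean as a bar. In Müller-like cells Ndufa4l2 takes 57.4% to 66.2% of its pair in OIR and 7.54% to 11.2% in Ctrl, while Cox4i2 stays between 40.7% and 53.6% in both groups.

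The constitutive partners are not among the 5 genes and were tested. They belong to a list that was chosen with earlier results of these data known. Ndufa4 was not called in any class by edgeR's quasi-likelihood test. In Müller-like cells it was at 764 ± 87.4 CPM (SD, n = 3) in OIR and 824 ± 85.2 in Ctrl (log2 fold change -0.17, edgeR adjusted p = 0.647) and Ndufa4l2 took 60.4% ± 5.02 (SD) of the pair in OIR against 9.83% ± 2.00 in Ctrl. In rod bipolar-like cells Ndufa4 was at 1509, 1660 and 1825 CPM in OIR and 2238, 2492 and 2862 in Ctrl. The groups did not overlap, the log2 fold change was -0.64 ± 0.16 (SE), and the adjusted p was 0.0518, which is no call, while it was called lower in 7 alternatives: DESeq2, the replicate block, no filter on low counts, replicates 2 and 3 alone, without Ctrl replicate 1, the mitochondrial limit of 10%, and the highest doublet scores (Scrublet) removed. Cox4i1 was at 1356 ± 90.7 CPM in OIR and 958 ± 137 in Ctrl rod-like cells (log2 fold change 0.34 ± 0.14, adjusted p = 0.225) and differed by 0.06 or less in log2 fold change in both bipolar classes and Müller-like cells. Shares of UMIs in a pair are compared between samples only and do not rank 2 genes, since the counts are not corrected for how well each gene is captured.

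A list of 93 further mitochondrial genes, chosen by function with results of these data known, put the 5 genes beside their pathways: 22 subunits and isoforms of complex IV, 34 mitophagy genes, and 37 genes of hypoxia-linked metabolism and movement of mitochondria. In rod bipolar-like cells 83 were tested, of which 2 rose and 2 fell. Fam162a, a HIF-induced mitochondrial protein, rose from 112 ± 25.9 to 224 ± 14.5 CPM (SD, log2 fold change 1.00 ± 0.16 SE, edgeR adjusted p = 0.00407), and Sqstm1 (p62, an autophagy adaptor) rose by 0.66 (adjusted p = 0.0259). Aifm1, a flavoprotein of the intermembrane space, fell by 0.98 on the log2 scale (adjusted p = 0.0243), and Chchd4, its partner in protein import, fell by 0.72 (adjusted p = 0.0468). Over all genes 1.26% were called higher and 1.16% lower. With the replicate number as a block 11 list genes were called (5 higher, 6 lower), Ndufa4 among those that fell. Fam162a kept its call without any single sample (adjusted p 0.00236 to 0.0451), while Sqstm1, Aifm1 and Chchd4 were each lost without OIR replicate 2 (adjusted p 0.106 to 0.165), OIR replicate 3 (0.0854 to 0.154), Ctrl replicate 2 (0.0572 to 0.198) or Ctrl replicate 3 (0.0757 to 0.124), Chchd4 also without OIR replicate 1 (0.0525) and Sqstm1 without Ctrl replicate 1 (0.0629).

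In Müller-like cells 1 of 85 list genes was called. Fam162a rose from 229 ± 56.5 to 512 ± 63.1 CPM (log2 fold change 1.11 ± 0.20 SE, edgeR adjusted p = 0.0214), and no list gene fell, beside 1.66% and 1.15% of all genes called higher and lower. The call was lost without OIR replicate 1 (adjusted p = 0.0804), OIR replicate 3 (0.0699) or Ctrl replicate 2 (0.0635). Pdk1, a pyruvate dehydrogenase kinase, was at 23.2 ± 2.16 against 14.7 ± 0.574 CPM without a call (edgeR adjusted p = 0.100). The dissociation stress genes summed to 5803 to 9378 CPM in OIR and 7525 to 11310 CPM in Ctrl Müller-like cells, and mitochondrially encoded RNA made up 4.25% to 7.32% and 5.12% to 8.30% of UMIs, overlapping in both cases.

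Rod-like cells had 1 of 85 list genes called, Calcoco1, an autophagy receptor, which fell by 0.87 on the log2 scale (33.1 ± 4.56 against 53.8 ± 12.3 CPM, edgeR adjusted p = 0.0432), beside 0.969% of all genes called lower. This call was lost without any 1 of the samples except Ctrl replicate 1 (adjusted p 0.0684 to 0.204), and with the replicate block 11 list genes were called (4 higher, 7 lower). In the remaining classes no list gene was called by edgeR's test. DESeq2 also called none. At an unadjusted edgeR p under 0.05 there were 11 of 84 in cone bipolar-like cells, 12 of 82 in cone-like, 1 of 55 in amacrine-like and 2 of 48 in microglia-like cells. Over all genes tested there were, in the same order, 1225 of 10262, 1062 of 9410, 204 of 3953 and 315 of 3368. With the block 5 were called in cone bipolar-like cells, Fam162a among them, at 285 ± 10.7 against 175 ± 52.0 CPM (log2 fold change 0.69, unblocked adjusted p = 0.119). The shares of all genes called lower were 0.351% in cone bipolar-like, 0.446% in cone-like and 0.0297% in microglia-like cells. In amacrine-like cells 0% of 3953 genes were called higher and 0% lower by edgeR, with 204 at an unadjusted p under 0.05 and 3 called by DESeq2.

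The genes nearest to each of the 5 in pattern were taken by Pearson's r of log2(CPM + 1) over 55 sums of at least 10 cells from 11 classes, which share libraries and depth. Across classes Ndufa4l2 was most like Cox4i2 (r = 0.787), S1pr3 and Fjx1, and Cox4i2 was most like Pdlim3 (0.803), Aqp4 and Ndufa4l2. Higd1a was most like Vdac1 (0.830), the pore of the outer mitochondrial membrane, and the glycolytic enzymes Tpi1 (0.830) and Pgam1 (0.827). Bnip3 was most like Gm40841 (0.817), Sulf2 and Tpi1 (0.791), and Bnip3l most like Prkg1 (0.774), Kbtbd11 and Tox2. With the mean of each class subtracted, which leaves differences among samples, the first genes were Sin3b for Ndufa4l2 (0.668), ahead of the lactate exporter Slc16a3 and Vim. They were 2310022B05Rik (0.709), Ier3ip1 and Ube2o for Cox4i2, and Gapdh (0.721), the HIF prolyl hydroxylase gene Egln1 (0.683) and Eid1 for Higd1a. For Bnip3 they were Gmfb (0.807), Trappc6a and Pgm2, and for Bnip3l Mpc1 (0.737), Rnf14 and Galk1. Among the 5 genes themselves, r after subtraction lay between 0.277 (Ndufa4l2 with Bnip3) and 0.618 (Cox4i2 with Higd1a). The differences left after subtraction include that between OIR and Ctrl, on which the 5 genes were selected. Nothing is therefore read from the values after subtraction.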

How the data were processed

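Single-cell RNA was measured with a 10x Genomics 3' kit in 3 OIR and 3 Ctrl samples of P17 mouse retina. The authors deposited whole-number UMI counts per gene and barcode without normalization, and the lowest barcode of each sample held 500 UMIs. Per the labels the build is mm10, and the matrix headers give software version 3.1.0, while the methods name another genome and version. The mouse gene identifiers in the files were used as they stand.

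Cells with fewer than 500 or more than 5000 genes or over 20% mitochondrial counts were removed, which kept 38569 of 47631 barcodes. Seurat 5.3.0 (R 4.3.3) integrated both groups by canonical correlation analysis (2000 variable genes without the 5 members, 15 components, 20 neighbours, resolution 0.5). Clusters were named "-like" from marker lists when at least 3 markers were 2-fold higher. Doublets were kept in the main result, since Scrublet's own threshold marked 0 cells in 4 samples. Counts were summed per sample and class and fitted by the quasi-likelihood test of edgeR 4.0.16, after filterByExpr and TMM scaling and without covariates. This was done in 7 classes with at least 10 cells in every sample. RPE-like cells, with at least 15 in every sample, also met this limit but were not fitted. Standard errors are the log2 fold change over the root of the F statistic. CPM is UMIs per 1000000 of the class. The edgeR fit was also run on simulated counts drawn independently for each sample. That run does not cover the pairing of samples or the Xist difference, so nothing is read from it. Alternatives were DESeq2 1.42.0, other scalings and filters, samples left out, a replicate block, a term for high Xist (Ctrl replicates 2 and 3), clustering without integration (scanpy 1.11.5), a mitochondrial limit of 10%, removal of the highest Scrublet scores (0.8% per 1000 barcodes), cells thinned to 1000 UMIs, and, added after seeing the data, each Müller-like cluster alone. Xist was low in every OIR sample and in Ctrl replicate 1, so that it is partly confounded with group. With the Xist term the contrast sets the OIR samples against Ctrl replicate 1 alone. The sex of the pups is not given in the sources used here, and its part in the results was not tested. Other steps used Python 3.11.15, numpy 2.4.6, pandas 2.3.3 and SciPy 1.17.1. Intervals and floors (3 UMIs) cover counting error only.

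The members and lists were chosen with earlier results of these data known. Named genes were the 5 members, their partners Ndufa4, Cox4i1, Higd2a and Higd1b, in each class and direction the 5 called list genes of lowest p, and for each member the 3 nearest genes in pattern on each scale, among genes with a mean of at least 10 CPM; Pdk1, Fam162a in cone bipolar-like cells, and Glul and Aqp4 levels were named after their values were seen. Samples with equal replicate numbers deviated together over all cells (r = 0.670, 0.298 and 0.506 over genes), so the numbers were taken to pair the samples. In replicate 2 they did not in Müller-like (r = -0.047), amacrine-like (-0.050) and microglia-like sums (-0.075). The main fit leaves this pairing out. Blocked counts that differ by over 1.5 times are given with the results or in the closing section.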

Additional observations from a re-analysis of the deposited data

Results flagged for a closer look

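Cells outside the named classes entered no comparison of the main clustering. In the clustering without integration, 371 of them were microglia-like and 300 rod-like. Values from 2 such clusters are given because every OIR sample lay above the Ctrl samples of at least 10 cells. Members lower in OIR were not looked for, so the direction is not read as a result. No test was made, and cluster sizes and makeup may differ between groups. In cluster 13 of 375 cells, led by S100a9, S100a8 and Igkc with markers of both leukocytes and microglia, Bnip3 was at a mean of 239 CPM in OIR (175 to 354, 117 UMIs) and 18.9 CPM in Ctrl (0 to 37.5, 8 UMIs). In the same cluster Cox4i2 was at 38.9 against 1.27 CPM (21 UMIs against 1) and Ndufa4l2 at 35.0 CPM against 0 (18 UMIs against 0). In cluster 14 of 364 cells, led by lens crystallin genes, Ndufa4l2 was at 27.1 CPM against 0 (8 UMIs against 0, with 2 Ctrl samples of at least 10 cells). The mean Ndufa4l2 level of OIR Müller-like cells was 1176 CPM, and the part of carried-over RNA in both clusters was not tested.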

How the results depend on the processing

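The median of the 5 genes stayed above 0 in bipolar-, Müller-, rod- and microglia-like cells under the alternatives run. With 1 sample left out it took either sign in cone-like (-0.03 to 0.11) and amacrine-like cells (-0.56 to 0.09). Of 114 medians 103 moved by less than the spread between replicates, and of 570 single-gene values 523 did. With the Xist term, which leaves Ctrl replicate 1 as the only Ctrl sample in the contrast, the median moved to 1.70 in rod bipolar-like and 0.66 in Müller-like cells. The median moved to 1.35 in cone bipolar-like and 1.06 in microglia-like cells (2.10) with thinned cells. With replicates 2 and 3 alone it moved to 0.18 in Müller-like and 0.94 in microglia-like cells. In the shallower Müller-like cluster alone it was 0.38. Leaving out 1 sample gave 0.20 to 0.36 in Müller-like and 0.98 (without OIR replicate 1) to 2.52 in microglia-like cells. Counts of list genes called moved more, and the cause was not tested. In rod-like cells (1 called) they were 5 with DESeq2, 5 without TMM, 2 without a filter, 11 with the replicate block, 22 with replicates 2 and 3 alone, 0 with the Xist term and 0 to 8 (without Ctrl replicate 1) with 1 sample left out. In rod bipolar-like cells (4) they were 8 without a filter, 11 with the block, 9 with replicates 2 and 3 alone, 0 when thinned and 1 to 5 with 1 sample left out. In cone bipolar-like cells (0) they were 1 without a filter, 5 with the block, 1 with replicates 2 and 3 alone, 2 with the Xist term and 0 to 1 with 1 sample left out. In Müller-like cells (1) they were 2 without a filter, 3 with replicates 2 and 3 alone and 0 to 3 with 1 sample left out, in cone-like cells (0) 3 with replicates 2 and 3 alone, and in microglia-like cells (0) 1 without a filter and 1 without integration. The block changed no other count of list genes by more than 1.5 times. Over all genes in rod-like cells, 181 higher and 112 lower became 353 and 322 with DESeq2, 636 and 587 with the block, 1228 and 1262 with replicates 2 and 3 alone, 14 and 20 with the Xist term, and 21 and 19 (without OIR replicate 2) to 531 and 472 (without Ctrl replicate 1) with 1 sample left out. The block took 118 and 108 to 325 and 308 in rod bipolar-like, 52 and 36 to 258 and 274 in cone bipolar-like, and 70 and 42 to 234 and 170 in cone-like cells. It also took 10 and 1 to 12 and 6 in microglia-like, and 0 and 0 to 1 and 0 in amacrine-like cells. Thinning took both bipolar classes to 13 and 10 and to 13 and 8, and leaving out OIR replicate 1 took 193 and 134 in Müller-like cells to 60 and 42. Classes with 17 to 81 cells per sample (microglia-like) or 26 to 154 (amacrine-like) limit what their low counts can show.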
